A study of Rattus norvegicus with 6 samples.

Results

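The COUP-TF family of orphan nuclear receptors has 3 members in the rat, Nr2f1 (COUP-TFI), Nr2f2 (COUP-TFII) and Nr2f6 (EAR2). Every probe set that the platform annotation maps to 1 of these 3 genes was taken, which gave 9 of the 31042 probe sets analysed, with 3 for Nr2f2, 1 for Nr2f1 and 5 for Nr2f6. The annotation covers 14217 genes in all, and none of the 436 probe sets listed with several symbols names a member. The 832/13 INS-1 line, a clonal rat insulinoma line used as a model of the pancreatic β-cell, was electroporated with 68 pmol of a COUP-TFII siRNA or with a scrambled siRNA. Total RNA of cells cultured for 48 h was hybridised to Affymetrix rat 230 2.0 arrays, with 3 arrays per siRNA, and the labels call the arrays of a group biological replicates 1 to 3. Cells of both groups carried no other labelled alteration and came from passages 7 to 25 of the same line. No untransfected cells were analysed here, so what the electroporation itself does cannot be told apart from the state that both groups share. The arrays allow 2 questions about the family, namely how far the message of the targeted paralog was lowered on each probe set, and whether the messages of the other paralogs moved with it.

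COUP-TFs bind direct repeats of the nuclear receptor half-site AGGTCA as homodimers or together with RXR, and they mostly act as repressors, although they activate some promoters. COUP-TFI and COUP-TFII are close in sequence and can stand in for each other in several developing tissues, while EAR2 is the more distant relative. COUP-TFII is known for roles in angiogenesis, in venous and lymphatic identity, in liver metabolism and in the β-cell.

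Signals are linear MAS5 intensities in arbitrary units, and a signal describes its own probe set only, so levels of different probe sets were not ranked against each other. The table gives no detection calls. The highest signal of the 27 bacterial control probe sets, 20.7, was therefore used as a scale for background. A probe set whose means in both groups lie at or below this value is called dim, as were 37.5% of all probe sets. Of the 9 family probe sets, 4 were dim and 5 were not. The arrays of the groups were alike in depth of signal, with medians between 31.2 and 39.4 on the COUP-TFII siRNA arrays and between 29.9 and 39.4 on the scrambled arrays. The 3′ to 5′ signal ratio, a measure of RNA integrity, ran for GAPDH from 1.04 to 1.07 on the COUP-TFII siRNA arrays and from 0.974 to 1.09 on the scrambled arrays, and for beta-actin from 2.64 to 3.39 on the COUP-TFII siRNA arrays and from 2.88 to 3.003 on the scrambled arrays. For hexokinase it was 4.83, 7.07 and 0.823 on COUP-TFII siRNA arrays 1 to 3, against 1.32, 0.948 and 2.16 on scrambled arrays 1 to 3. The ranges overlapped for all 3 genes, and their part in the family values was not tested. All 13 measured β-cell markers lay above background. Of 6 markers of other islet cells, Gcg and Ppy did so. The summed signal of these 6 ran from 859 to 8131 on the COUP-TFII siRNA arrays and from 434 to 6378 on the scrambled arrays, and Ghrl, Hhex, Irx2 and Sst were at or below background. Nearly all of it was Gcg, the glucagon gene, at 8056, 4789 and 817 on COUP-TFII siRNA arrays 1 to 3, against 6313, 3397 and 394 on scrambled arrays 1 to 3. Gcg was higher with COUP-TFII siRNA in all 3 pairs and differed more between replicate numbers than between groups, and its part in the family values was not tested. Of 10 exocrine markers only Ctrb1 was above it, and of 10 markers of mesenchyme and endothelium only Kdr and Pdgfra were. In RNA from whole cultures, fewer cells that express a gene and less RNA per cell cannot be told apart.

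The promoters of the 2 non-targeted paralogs are shown because their response to COUP-TFII depletion is what the array values below describe. The stretches run from 250 bases before to 50 bases after the annotated start, on the minus strand, from RefSeq on the build GRCr8, at chr2:9785875-9786174 for Nr2f1 and chr16:18087400-18087699 for Nr2f6. Capitals mark GC boxes, GGGCGG or its complement CCGCCC, the motif bound by Sp1, a factor through which COUP-TFs can act on DNA.
Nr2f1: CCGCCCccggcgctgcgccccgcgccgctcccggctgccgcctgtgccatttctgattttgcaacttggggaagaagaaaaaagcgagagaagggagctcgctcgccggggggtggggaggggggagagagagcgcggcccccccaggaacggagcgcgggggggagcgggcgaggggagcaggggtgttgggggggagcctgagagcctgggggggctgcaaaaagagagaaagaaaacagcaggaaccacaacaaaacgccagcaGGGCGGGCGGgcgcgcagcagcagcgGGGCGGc
Nr2f6: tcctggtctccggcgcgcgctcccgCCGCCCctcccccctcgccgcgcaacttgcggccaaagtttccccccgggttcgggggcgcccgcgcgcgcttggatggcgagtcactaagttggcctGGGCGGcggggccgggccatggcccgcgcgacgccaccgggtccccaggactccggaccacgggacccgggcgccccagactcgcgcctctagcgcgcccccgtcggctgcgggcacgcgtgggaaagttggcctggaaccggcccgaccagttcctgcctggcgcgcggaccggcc
The half-site AGGTCA, searched on both strands as AGGTCA and TGACCT, occurred 0 times in either stretch, against a share of 16.2% of the 33465 promoters of the same length that hold it. The Nr2f1 stretch held 4 GC boxes, of which a pair overlaps, and the Nr2f6 stretch held 2, while 33.1% of all promoters hold at least 1. Both stretches are rich in G and C, at 70.3% for Nr2f1 and 77.3% for Nr2f6, against a median of 51.7% over all promoters. These are matches of letters in a short window and do not locate a binding site. The promoter table used here matched 2 of the 3 members, and Nr2f2 is named only.

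The message of the targeted gene, Nr2f2, was lower with COUP-TFII siRNA on both of its probe sets that lay above background. Probe set 1389554_at gave signals of 47.0, 27.7 and 23.8 on COUP-TFII siRNA arrays 1 to 3, against 182, 235 and 179 on scrambled arrays 1 to 3. All 3 depleted arrays lay well below all 3 control arrays, and all 6 lay above background. The means were 32.8 ± 12.4 on the COUP-TFII siRNA arrays and 199 ± 31.5 on the scrambled arrays (SD, n = 3 each). The log2 fold change was -2.65 (SE 0.30, 95% interval -3.34 to -1.97), so that by geometric means 15.9% of the scrambled signal remained (95% interval 9.90% to 25.6%). COUP-TFII siRNA arrays 2 and 3 lay close to background, and with an offset of 16 added before log2 the share was 22.4%. Limma without pairing gave 1389554_at an adjusted p of 0.404 over all probe sets, and limma with the replicate number as a block gave 0.0185. By its unadjusted p of 1.3e-05 it ranked 1 of all 31042 probe sets in the unpaired fit.

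A second Nr2f2 probe set, 1370063_at, which the annotation ties to the RefSeq transcript of the gene, pointed the same way. Its signals were 19.7, 22.2 and 21.3 on COUP-TFII siRNA arrays 1 to 3, against 79.8, 65.7 and 61.8 on scrambled arrays 1 to 3. The groups again did not overlap, and the depleted signals sat at the background scale, with 2 of the 3 above it. The means were 21.1 ± 1.28 on the COUP-TFII siRNA arrays and 69.1 ± 9.48 on the scrambled arrays (SD, n = 3 each). The log2 fold change was -1.71 (SE 0.32, 95% interval -2.43 to -0.98), or 30.6% of the scrambled signal (95% interval 18.5% to 50.6%). It was not called by limma, with an adjusted p of 1 in the unpaired fit and of 0.316 with the block. Since the depleted signals reach background, a deeper loss could not be seen on this probe set.

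The remaining Nr2f2 probe set, 1395863_at, carried no measurable signal. It gave 16.7, 7.99 and 15.3 on the COUP-TFII siRNA arrays, against 16.4, 13.6 and 19.9 on the scrambled arrays. All 6 values lay below the background scale and the groups overlapped, so no fold is given.

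**Figure D1:**
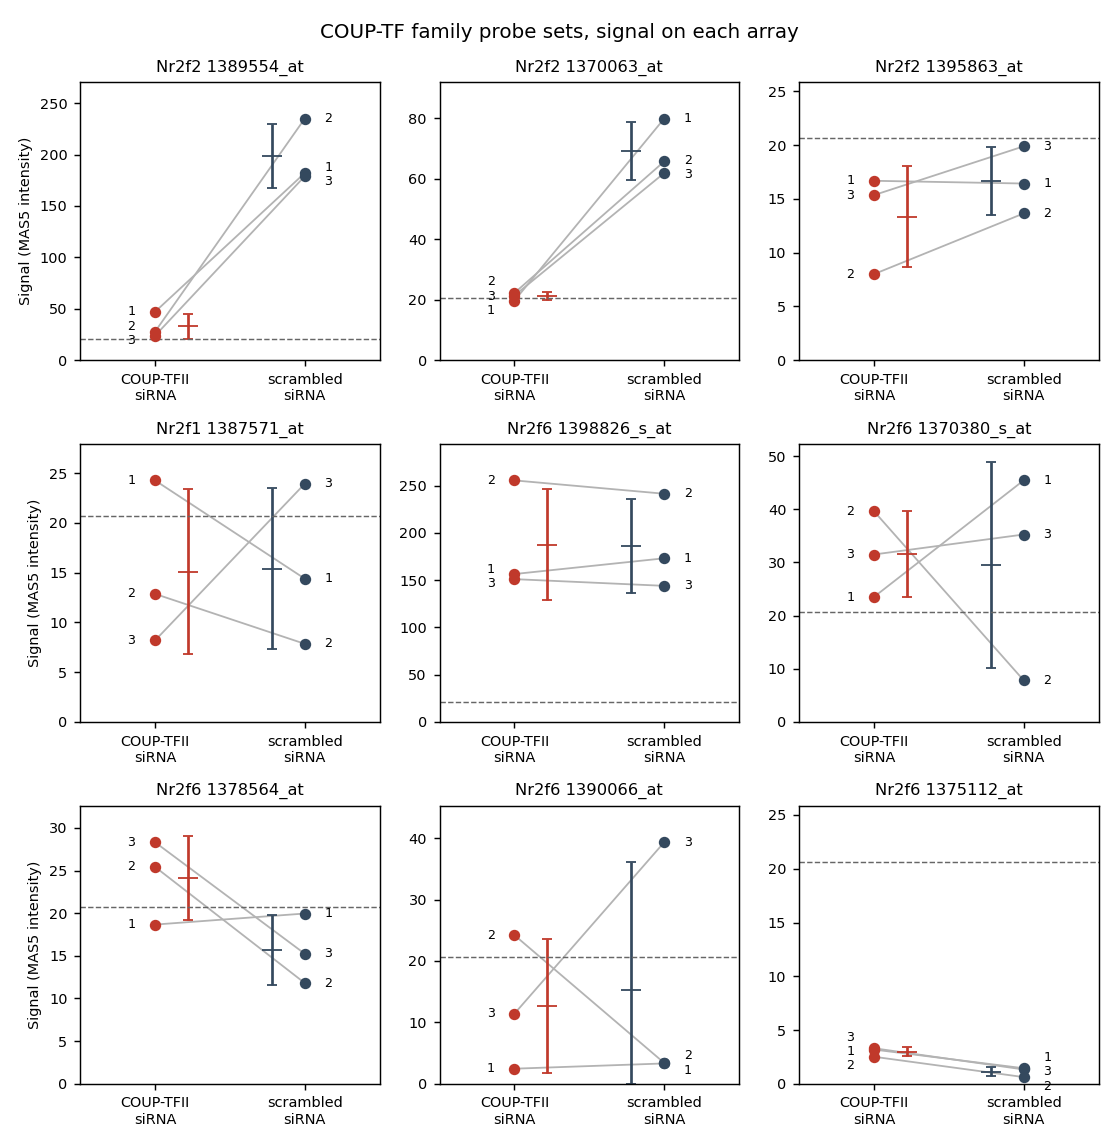
Signal (MAS5 intensity, linear axis from 0) of the 9 COUP-TF family probe sets on the 3 COUP-TFII siRNA arrays (red) and the 3 scrambled siRNA arrays (dark blue). Numbers are replicate numbers, grey lines join arrays with the same number, bars show mean ± SD and the dashed line is the background scale of 20.7. For Nr2f2 probe sets 1389554_at and 1370063_at all depleted arrays lie below all controls, whereas the groups overlap for Nr2f6 1398826_s_at.

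Of the 9 family probe sets, 2 had groups that did not overlap with COUP-TFII siRNA lower, both of Nr2f2, against 3.49% of all probe sets, and 1 with COUP-TFII siRNA higher, against 3.25%. The unpaired limma fit called 0 of the family at an adjusted p under 0.05 and 0.00% of all probe sets (0 of 31042). At an unadjusted p up to 0.05 it held 2 of the family, the same Nr2f2 probe sets, against 2.31% of all (717 of 31042). With the block, 1 family probe set passed, Nr2f2 1389554_at, against 0.0161% of all probe sets with COUP-TFII siRNA lower (5 of 31042).

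The median signal was reached by 15521 probe sets, by mean log2 signal over all 6 arrays. Both of these Nr2f2 probe sets reached it through the scrambled arrays, since their means on the COUP-TFII siRNA arrays lay below it. Their ranks among the 15521 are therefore a description only. Probe set 1389554_at ranked 1 of the 15521 by decrease and 1370063_at ranked 2, and the next decrease was a log2 fold change of -1.62. The highest increase among them was 1.14. Probe set 1389554_at kept rank 1 under quantile normalization, median centring, an offset of 16 and each array left out, while 1370063_at ranked between 2 and 4. Over all probe sets, dim ones included, 1389554_at ranked 30 by decrease and 1370063_at ranked 486. The 29 before 1389554_at all lay below the median signal.

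**Figure D2:**
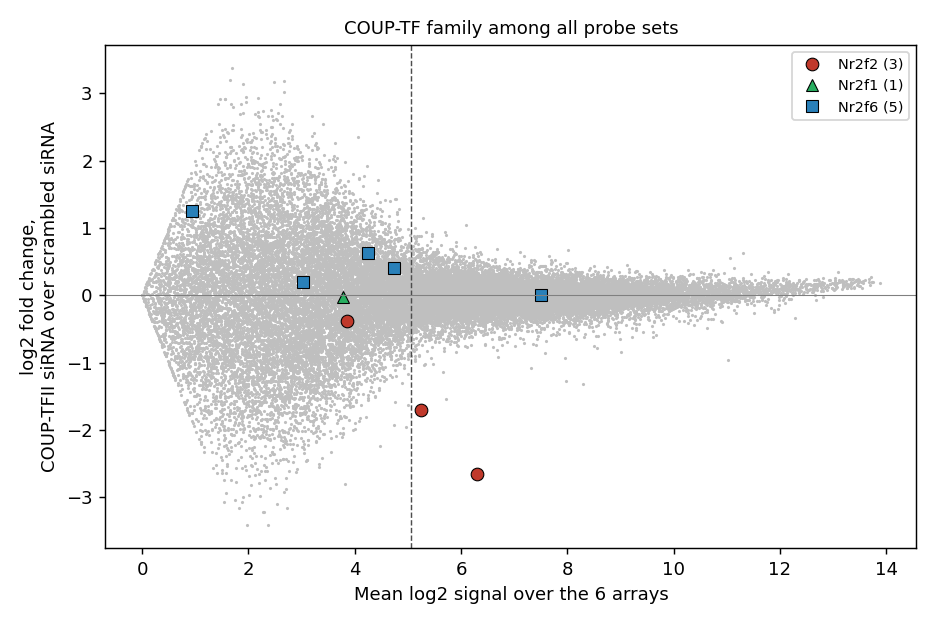
Log2 fold change between the groups (above 0, higher with COUP-TFII siRNA) against mean log2 signal over the 6 arrays, for each of the 31042 probe sets (grey), with family probe sets in colour and the median signal as a dashed line. The 2 brighter Nr2f2 probe sets, at -2.65 and -1.71, lie below every other probe set right of that line. They pass the line through their scrambled signals. The Nr2f6 probe set 1398826_s_at, also right of the line, lies at 0.0018.

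Compared by replicate number, both measured Nr2f2 probe sets were lower with COUP-TFII siRNA in all 3 pairs of arrays, as were 14.0% of all probe sets. On 1389554_at the depleted array held 25.8%, 11.8% and 13.3% of the signal of its scrambled partner in pairs 1 to 3. On 1370063_at it held 24.6%, 33.8% and 34.5%. The pair with the most signal left on 1389554_at was thus the pair with the least left on 1370063_at, and the probe sets gave no common order of the pairs. Over the 6 arrays the log2 signals of these probe sets had a Pearson r of 0.948, which describes the gap between the groups, and 1395863_at had one of 0.478 with 1389554_at.

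Nr2f1, the nearest relative of the targeted gene, was barely detectable on its single probe set, 1387571_at. Low expression of the gene and a weak probe set cannot be told apart here. Probe set 1387571_at gave 24.3, 12.9 and 8.19 on COUP-TFII siRNA arrays 1 to 3, against 14.4, 7.85 and 23.9 on scrambled arrays 1 to 3. Of each group 1 array lay above background, and the values of the groups were interleaved. The means were 15.1 ± 8.28 on the COUP-TFII siRNA arrays and 15.4 ± 8.09 on the scrambled arrays (SD, n = 3 each). The fitted log2 difference was -0.03 (SE 0.68, 95% interval -1.57 to 1.51), with an adjusted p of 1 by limma. Such an interval holds anything between 33.8% and 285% of the scrambled signal, so a change in Nr2f1 was not detectable at this level, in either direction. The depleted array was higher in pairs 1 and 2, by 0.75 and 0.71 on the log2 scale, and lower in pair 3, with a difference of -1.55.

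Nr2f6, which encodes the more distant paralog EAR2, was measured well above background by 1 of its 5 probe sets, where the groups had nearly the same mean. On 1398826_s_at the signals were 157, 256 and 151 on COUP-TFII siRNA arrays 1 to 3, against 173, 242 and 144 on scrambled arrays 1 to 3. Replicate 2 was the highest array of each group, and the groups overlapped throughout. The means were 188 ± 58.8 on the COUP-TFII siRNA arrays and 186 ± 50.0 on the scrambled arrays (SD, n = 3 each). The log2 fold change was 0.0018 (SE 0.27), with an adjusted p of 1 by limma and a 95% interval from 65.8% to 152% of the scrambled signal. Because same-numbered arrays moved together, the fit with the replicate block narrowed the SE to 0.11 and the interval to between 84.1% and 119%. Within pairs 1 to 3 the depleted array held 90.4%, 106% and 105% of its scrambled partner. The suffix of this probe set marks probes that match more than 1 transcript, so its signal may not come from Nr2f6 alone.

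The other 4 Nr2f6 probe sets were faint and did not follow the bright one, with Pearson r between -0.39 and -0.06 to it over the 6 arrays. Probe set 1370380_s_at gave 23.5, 39.7 and 31.5 on the COUP-TFII siRNA arrays, against 45.4, 7.84 and 35.3 on the scrambled arrays, a log2 fold change of 0.41 (SE 0.67). The low scrambled array 2 set the sign of that value, which was -0.38 without it. Probe set 1378564_at gave 18.7, 25.4 and 28.3 on the COUP-TFII siRNA arrays, against 20.0, 11.8 and 15.2 on the scrambled arrays. Here 2 depleted arrays and no control array lay above background, but depleted array 1 was below control array 1 and the groups overlapped. Since all 3 control signals lay below background, no fold is given.

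Probe set 1390066_at gave 2.46, 24.2 and 11.4 on the COUP-TFII siRNA arrays, against 3.31, 3.39 and 39.3 on the scrambled arrays. A single array of each group lay above background, a different replicate number in each. Probe set 1375112_at gave 3.18, 2.51 and 3.31 on the COUP-TFII siRNA arrays, against 1.45, 0.623 and 1.33 on the scrambled arrays. These groups did not overlap, and this is the family probe set counted above as higher, but all 6 values lay far below the background scale, so no fold is given. An exact two-sided permutation test of 3 arrays against 3 cannot go below p = 0.1, the value it reached for this probe set and for both measured Nr2f2 probe sets.

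**Figure D3:**
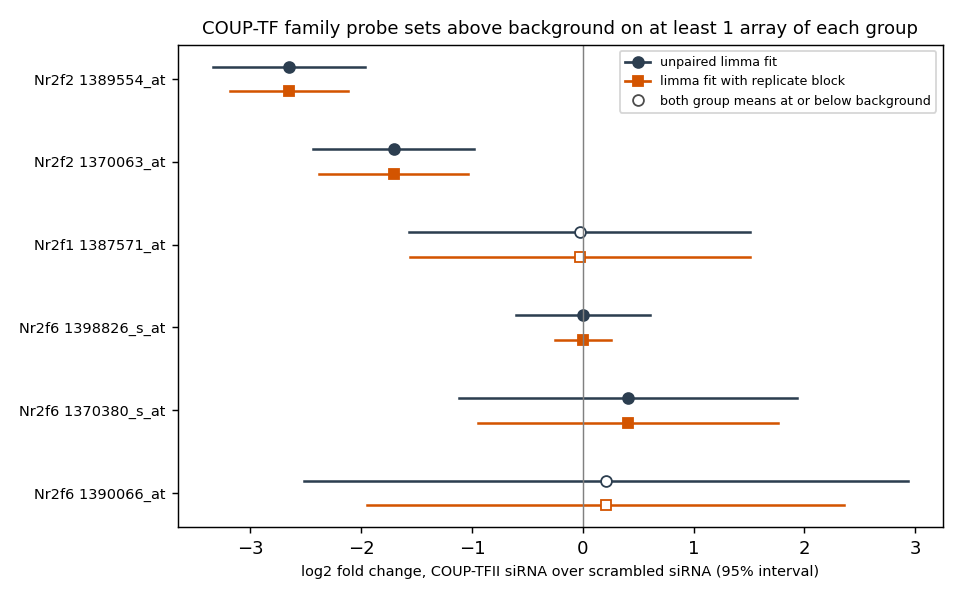
Log2 fold change between the groups (above 0, higher with COUP-TFII siRNA) with 95% intervals, for the 6 family probe sets that lay above background on at least 1 array of each group, from the unpaired limma fit (circles) and the fit with the replicate block (squares). Open symbols mark probe sets with both group means at or below background; the intervals of both Nr2f2 probe sets lie below 0, and all those of Nr2f1 and Nr2f6 include 0.

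The paralogs were then compared with each other on the same array, as the log2 signal of the brightest probe set of one minus that of the other. For Nr2f2 minus Nr2f6 this difference was -1.74, -3.21 and -2.67 on COUP-TFII siRNA arrays 1 to 3, against 0.07, -0.04 and 0.31 on scrambled arrays 1 to 3. The depleted arrays lay below the controls without overlap, with means of -2.54 ± 0.74 on the COUP-TFII siRNA arrays and 0.12 ± 0.18 on the scrambled arrays (SD, n = 3 each). The means of the groups thus lay -2.65 apart on the log2 scale. By the exact two-sided permutation test the p was 0.1, the smallest this design allows, or 0.15 after adjustment over the 3 pairs of paralogs.

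For Nr2f2 minus Nr2f1 the difference averaged 1.20 ± 0.30 on the COUP-TFII siRNA arrays and 3.82 ± 1.01 on the scrambled arrays (SD, n = 3 each), -2.62 apart. Nr2f1 is dim, so this is no measured response relative to Nr2f1, and nothing is read from its size. For Nr2f6 minus Nr2f1 it averaged 3.74 ± 0.91 on the COUP-TFII siRNA arrays and 3.71 ± 1.18 on the scrambled arrays (SD, n = 3 each), 0.03 apart, with the same limit. Among the other combinations of Nr2f2 and Nr2f6 probe sets, 5 held no dim one, and in these 5 the difference between the groups ran from -3.29 to -1.71. The -3.29 used Nr2f6 1378564_at, whose control signals all lay below background, so its size is not read. Others used the faint 1370380_s_at, whose own sign hung on scrambled array 2. The -1.71 came from Nr2f2 1370063_at minus the bright Nr2f6 1398826_s_at.

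**Figure D4:**
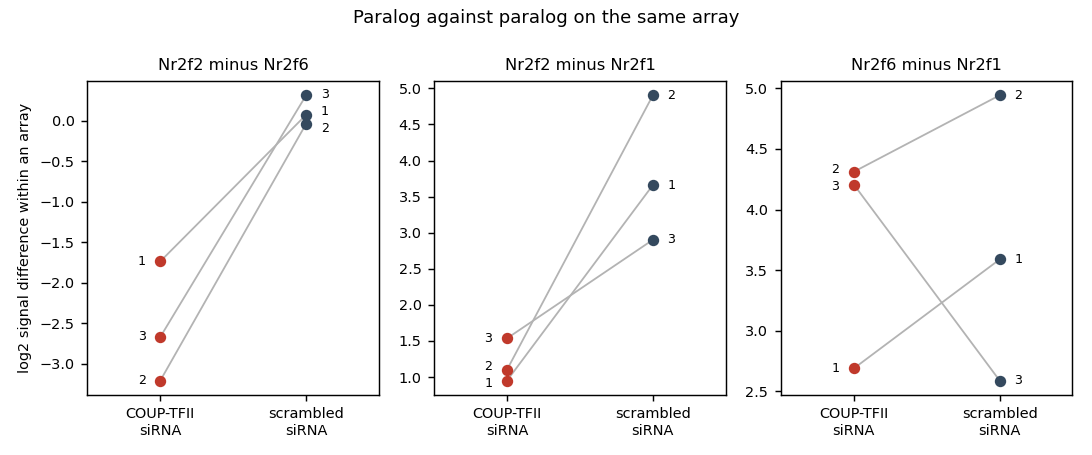
Within-array difference in log2 signal between the brightest probe sets of each pair of paralogs, on COUP-TFII siRNA arrays (red) and scrambled siRNA arrays (dark blue), with grey lines joining arrays of the same replicate number. Both differences that contain Nr2f2 are lower on all 3 depleted arrays, while Nr2f6 minus Nr2f1 overlaps between the groups; the Nr2f1 probe set is dim.

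Other nuclear receptors of the NR2 subfamily, which share half-sites or dimerise with COUP-TFs, held no called gene. Of 6 measured genes 0 were called by either limma fit and 0 had an unadjusted p up to 0.05, with 3 lower and 3 higher by log2 fold change and a median of 0.04. Of the 6, 2 were dim, and the other 4 were split into 2 lower and 2 higher. Over all probe sets 15651 were lower and 15383 higher, with a median of -0.0031, and over the 19389 that were not dim the median was 0.0018. Hnf4a, a receptor active in β-cells and liver that competes with COUP-TFs for DNA sites and which is also counted in the upstream and target lists, averaged 263 ± 52.6 on the COUP-TFII siRNA arrays and 328 ± 13.1 on the scrambled arrays (SD, n = 3 each). Its log2 fold change was -0.34 (SE 0.17), and it was lower in all 3 pairs. Rxrb, a heterodimer partner, was at 0.16 and the orphan receptor Nr2c1 at -0.07.

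Among corepressors, coactivators and other partners of COUP-TFs, 0 of 24 measured genes were called by either fit or had an unadjusted p up to 0.05, with 13 lower and 11 higher and a median of -0.04. Of these 24, 3 were dim. The histone deacetylase Hdac2 was at 0.16 and the orphan receptor Esrra at -0.26. Sp1, the factor of the GC boxes printed above, averaged 562 ± 29.8 on the COUP-TFII siRNA arrays and 612 ± 22.9 on the scrambled arrays (SD, n = 3 each), a log2 fold change of -0.12. The unadjusted p of Sp1 was 0.351 by limma. Its groups did not overlap, but only just, with 587 the highest COUP-TFII siRNA signal and 590 the lowest scrambled signal. Of all probe sets, 3.49% had groups without overlap and COUP-TFII siRNA lower.

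Of 9 measured genes listed as upstream of COUP-TFII, 0 were called or had an unadjusted p up to 0.05, with 7 lower, 2 higher and a median of -0.22. That median is the value of Gli1, which was dim, as was 1 other gene of the list. Over the 7 that were not dim, 5 were lower and 2 higher, with a median of -0.14. Leaving out scrambled array 3 moved the median of all 9 to -0.00061. Prox1, a homeobox factor that works with COUP-TFII in lymphatic cells, averaged 182 ± 10.5 on the COUP-TFII siRNA arrays and 229 ± 31.0 on the scrambled arrays (SD, n = 3 each). Its log2 fold change was -0.32 (SE 0.16, unadjusted p = 0.0811 by limma). The groups did not overlap, with COUP-TFII siRNA lower, as in 3.49% of all probe sets. Ctnnb1, which encodes the TCF7L2 partner β-catenin and is also described as downstream of COUP-TFII, averaged 4701 ± 542 on the COUP-TFII siRNA arrays and 4025 ± 1046 on the scrambled arrays (SD, n = 3 each), a log2 fold change of 0.25 (SE 0.22). Scrambled array 2 was low for Ctnnb1, at 2830 against 4474 and 4772 on scrambled arrays 1 and 3. By RT-qPCR the authors report lower β-catenin mRNA in knockdown cells, the other direction. Foxo1, a forkhead factor inhibited by insulin, was at -0.14.

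Of 38 measured genes described as COUP-TF targets, some of them by the authors of these arrays, 0 were called by either fit. An unadjusted p up to 0.05 was reached with COUP-TFII siRNA lower by 2 genes, against 1.34% of all probe sets, and higher by 1, against 0.973%. Acadm, which encodes a mitochondrial fatty acid dehydrogenase, averaged 257 ± 37.5 on the COUP-TFII siRNA arrays and 397 ± 61.8 on the scrambled arrays (SD, n = 3 each). Its log2 fold change was -0.62 (SE 0.18, unadjusted p = 0.007 and adjusted p = 1 by limma). Its groups did not overlap, with COUP-TFII siRNA lower, as in 3.49% of all probe sets. The other 2 genes are named after their values were seen. Ccnd1, which encodes cyclin D1, gave 16.5, 40.3 and 5.87 on COUP-TFII siRNA arrays 1 to 3, against 52.4, 46.0 and 43.0 on scrambled arrays 1 to 3. These groups did not overlap, with COUP-TFII siRNA lower. Since 2 of the depleted signals lay below background and the other was close to its partner, no exact fold is given. The authors list a different Ccnd1 probe set, not used here, as lower in knockdown cells. Lhcgr, a gonadotropin receptor, was dim. The authors also list the Acadm and Lhcgr probe sets used here, from these same arrays, so those genes are no separate support. The target list as a whole had 22 genes lower and 16 higher, with a median of -0.08, but 18 of its 38 genes were dim. Over the other 20, 13 were lower and 7 higher, with a median of -0.11. Pdx1, a homeobox factor of β-cells, averaged 411 ± 19.1 on the COUP-TFII siRNA arrays and 462 ± 49.1 on the scrambled arrays (SD, n = 3 each), a log2 fold change of -0.16.

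A pair of lists concerns the response to an siRNA rather than its target. Both groups received an siRNA, so a response that they share cannot be seen in this comparison. Of 21 measured genes of the interferon response to double-stranded RNA, 0 were called or had an unadjusted p up to 0.05, with 12 lower, 9 higher and a median of -0.10. Of these 21 genes, 10 were dim, and a change in them could not be measured. Over the 11 others, 6 were lower and 5 higher, with a median of -0.05. Irf7, a transcription factor of that response, was at -0.49 and Ifi27, an interferon-induced gene, at 0.13. Of 11 measured genes of the RNA interference machinery, 0 were called or had an unadjusted p up to 0.05, with 8 lower, 3 higher and a median of -0.10, and 1 of the 11 was dim. Dgcr8, a cofactor in microRNA processing, was at -0.21 and Tnrc6b, which acts with Argonaute proteins, at -0.25.

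By gene order in RefSeq, next to Nr2f6 lies Ocel1, at 332 ± 28.6 on the COUP-TFII siRNA arrays and 322 ± 36.8 on the scrambled arrays (SD, n = 3 each), a log2 fold change of 0.05. Near Nr2f2 the closest gene that was not dim was Arrdc4, an arrestin relative, at 1234 ± 198 on the COUP-TFII siRNA arrays and 1216 ± 144 on the scrambled arrays (SD, n = 3 each). Around Nr2f1 the closest measured gene was Arrdc3, 11 genes away, at a log2 fold change of 0.04. Adgrv1, 15 genes away, was at -0.11 and Skic3, 19 genes away, at -0.0061. Arsk, a sulfatase gene 20 genes away, averaged 95.3 ± 5.07 on the COUP-TFII siRNA arrays and 78.3 ± 2.89 on the scrambled arrays (SD, n = 3 each). The log2 fold change of Arsk was 0.28 (unadjusted p = 0.192 by limma). Its groups did not overlap, with COUP-TFII siRNA higher, as in 3.25% of all probe sets.

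The probe sets whose log2 signals ran most like those of the paralogs over the 6 arrays were picked by Pearson r, as a description, among the probe sets with 1 symbol that reached the median signal. For Nr2f2 1389554_at they were C2cd2 (r 0.997), Ctdsp2 (r 0.984), Pak4 (r 0.977), Hsd17b11 (r 0.976) and S100a1 (r 0.970). All 5 had groups without overlap and COUP-TFII siRNA lower, as had 3.49% of all probe sets. That follows from picking them by likeness to Nr2f2, whose groups are far apart, and is no separate result. Their decreases were smaller than that of Nr2f2, with S100a1 the furthest at a log2 fold change of -0.61. For Nr2f6 1398826_s_at the closest were Ptpn6 (r 0.996) and Knstrn (r 0.995), whose replicate 2 arrays were likewise the highest of each group. For Nr2f1 they were Patl1 (r 0.980) and Camta1 (r 0.958). The 6 points of each r share their arrays and, for Nr2f2, the split between the groups.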

How the data were processed

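The authors processed the scans of 6 arrays with MAS5, version not given in the sources used here, and deposited linear intensities, from which background had been subtracted and which had been scaled on reference probes that are not named. Fold changes near background are compressed by what signal remains there. Of 31099 probe sets, 57 controls were left out. A floor of 1 was set before log2. The test was limma 3.58.1 (R 4.3.3, lmFit and eBayes with trend), unpaired and two-sided, with Benjamini-Hochberg adjustment over 31042 probe sets and a threshold of 0.05. The fits were checked on simulated data. For the unpaired fit with variation shared by same-numbered arrays, how often the intervals hold the true value was not required to pass.

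Gene symbols came from the platform annotation, and a RefSeq table (GRCr8) gave neighbours. For each listed gene the brightest probe set was used, and up to 4 genes per list by lowest p that reached the median signal could be named, with 5 similar patterns per paralog. The members and lists were chosen with earlier results of these data known.

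Deviations from group means correlated at 0.111, 0.231 and 0.163 between arrays with the same replicate number and from -0.146 to -0.0104 between others. The numbers, given by the labels, were therefore taken to pair the arrays in the fit with the replicate block. This reading rests on the same data as that fit. Deviations from a group mean cancel within the group, so positive values between same-numbered arrays push the others towards negative ones. No arrays were duplicates, with at most 1 identical signal in any of 15 pairs of arrays. Alternatives were the t-test of the methods, no trend, quantile normalization, median centring, an offset of 16, a filter at the median signal, the replicate block and each array left out. Leaving out both replicate 2 arrays was added after seeing the data, as were counts over genes and probe sets that were not dim. Probe and siRNA sequences were not analysed here, so hybridisation across paralogs was not tested. Tests measure the spread between these cultures, which are not stated to come from separate passages. Having 6 arrays limits the precision.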

Additional observations from a re-analysis of the deposited data

How the results depend on the processing

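Nr2f2 1389554_at stayed lower with COUP-TFII siRNA under all alternatives run. With the replicate block its log2 fold change of -2.65 had an adjusted p of 0.0185 by limma. The block gave -2.16 with an offset of 16 (adjusted p = 0.0296), -2.63 after quantile normalization (adjusted p = 0.0196) and -2.65 with the filter (adjusted p = 0.000721). Its adjusted p ranged from 0.000721 to 1 over the alternatives. Leaving arrays out gave -2.94 to -2.43, the last without both replicate 2 arrays. Nr2f2 1370063_at was called by limma only with the block and the filter, at -1.71 (adjusted p = 0.0253). With the block and no filter its adjusted p was 0.316 by limma. Both Nr2f2 probe sets pass the filter through their scrambled signals, so the values with the filter are no separate support. The number of probe sets called was 0 in the unpaired fit, 1 by the methods' t-test, 5 with the replicate block, 2 with the block and the offset, 4 with the block and quantile normalization and 16 with the block and the filter. The block changed no other call of a family probe set.

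The sign was not settled for the members near 0. With arrays left out Nr2f1 ran from -0.44 (without scrambled array 2) to 0.36 (without scrambled array 3) and Nr2f6 1398826_s_at from -0.24 (without COUP-TFII siRNA array 2) to 0.21 (without scrambled array 2), which was -0.0024 after median centring. Nr2f6 minus Nr2f1 ran from -0.53 to 0.65. Nr2f6 1370380_s_at ran from -0.56 to 0.89, the lowest without both replicate 2 arrays. Nr2f6 1390066_at ran from -1.11, without both replicate 2 arrays, to 1.39, and was -0.0089 with the offset, with or without the block. The median of the upstream regulators ran from -0.35 to -0.00061, nearest 0 without scrambled array 3. Among the other list medians, that of the NR2 receptors ran from -0.05 to 0.22, that of the partners from -0.11 to 0.04, that of the targets from -0.15 to 0.02, that of the interferon genes from -0.27 to -0.02 and that of the RNA interference genes from -0.16 to -0.06. The cause was not tested. Where signals approach background, as on the 4 dim family probe sets and on some arrays of others, only large changes could be seen.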
